A study of Saccharomyces cerevisiae with 40 samples.

Results

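Cells of the budding yeast Saccharomyces cerevisiae growing on glutamine as nitrogen source were compared with cells growing on urea. The comparison consists of 2 two-colour microarrays, 1 in each of the 2 value tables, and its members are the 3265 genes with a value on both, out of 5395 genes with a value on any of the 40 arrays of the study. The strain was Sigma1278b (Σ1278b in the series text), which makes filaments and is widely used in work on nitrogen sources. Cells grew for at least 10 generations in minimum medium with 3% glucose and either 10 mM glutamine or 10 mM urea, and were harvested in exponential growth at low density. PolyA RNA of glutamine cells was in Cy5 and that of urea cells in Cy3 on replicate 1, and the dyes were exchanged on replicate 2. The study also measured 19 other sources, always against urea, so urea RNA sat on every array and all comparisons share it. Tryptophan was supplied at 5 mM. Dyes were not exchanged for tryptophan or tyrosine, whose arrays all carried urea RNA in Cy5. Of these, ammonium, asparagine and glutamate, each at 10 mM, are set beside glutamine here.

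Yeast takes up and breaks down preferred nitrogen sources first. While such a source is present, nitrogen catabolite repression keeps the genes for permeases and enzymes of poorer sources low, and these genes are switched by GATA transcription factors, of which Gln3 and Gat1 activate and Dal80 and Gzf3 repress, with Ure2 holding Gln3 in the cytoplasm. Glutamine is a preferred source and the nitrogen donor of many syntheses, and cells make it from glutamate and ammonium with glutamine synthetase. Urea has to be taken up and cut to ammonium before its nitrogen can be used, and the genes of allantoin and urea use belong to one pathway.

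Values are log2 ratios of glutamine over urea, so a negative value means less RNA on glutamine. A fitted value is the mean of both arrays, and its standard error (SE, n = 2 arrays) comes from a spread of the gene estimated over all 40 arrays, to which the distance between the 2 glutamine arrays adds only a part. The labels do not state whether replicates were grown as separate cultures. The p-values therefore cover the variation seen among arrays, part or all of which may be technical. In RNA of whole cultures, a change in every cell and a change in some of the cells cannot be told apart. Replicate 1 gave values for 4858 genes and replicate 2 for 3399, because 22.7% and 49.0% of their spots had no value. Values of the 2 spots of a gene correlated at 0.976 on replicate 1 and 0.971 on replicate 2. Across the 3265 genes the arrays correlated at 0.801, which describes the arrays, since genes are not independent. The sign was the same on both for 72.9% of genes, and all 87 genes beyond 1 in size on both arrays had the same sign.

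**Figure D1:**
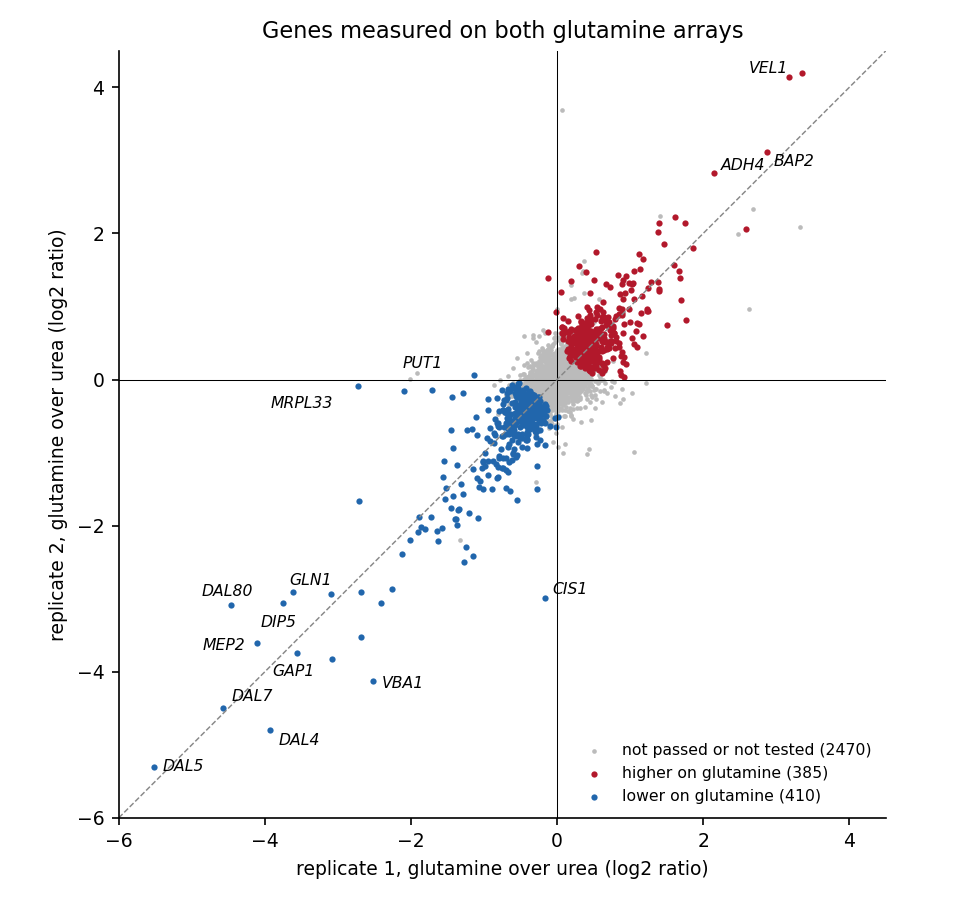
Log2 ratio of glutamine over urea on replicate 1 (horizontal) and replicate 2 (vertical), 1 point per gene for the 3265 genes with both values. Red points are the 385 genes that passed as higher, blue points the 410 that passed as lower and grey points the rest, with the dashed line marking equal values. DAL5, DAL7, DAL4, MEP2 and GAP1 lie far down on both arrays, while MRPL33, PUT1 and CIS1 are low on 1 array and near 0 on the other.

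With limma and Benjamini-Hochberg adjustment over 3188 tested genes (the other 77 had values on fewer than 30 of the 40 arrays), 795 genes, or 24.9%, passed the adjusted p threshold of 0.05. Of all tested genes, 12.1% (385) were higher on glutamine and 12.9% (410) lower. The largest changes were falls: of the genes that passed, 68 lay below -1 and 44 above 1. Both arrays had the same sign for 790 of the 795 genes. Each glutamine array was also left out in turn, and "without either array" is used here for what held, or was lost, in both of those fits. With 1 array left out, fewer genes passed, namely 348 without replicate 1 and 273 without replicate 2. Of the 795 genes, 187 passed in both of those fits, and the genes of nitrogen source use described next are mostly among them.

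Permeases listed for poorer nitrogen sources were lower on glutamine, with 1 exception. The list, called permeases of poorer sources here, also holds the ammonium permeases MEP1, MEP2 and MEP3, although ammonium is a preferred source. Of its 11 permeases 8 were tested, 7 fell and 1 was higher, beside 12.9% lower and 12.1% higher of all tested genes. The list's median was -3.10, against -0.00 for all tested genes. DAL5, the permease for allantoate, an intermediate of allantoin breakdown, had -5.52 and -5.31 on replicates 1 and 2 and the lowest fitted value of all tested genes, -5.41 ± 0.37 (adjusted p = 4.0e-11). DAL4, the allantoin permease, had -3.93 and -4.80 and fell by 4.37 ± 0.32 on the log2 scale (adjusted p = 2.0e-10). Both arrays of both genes lay far below 0.

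MEP2, the high-affinity ammonium permease that also signals in filamentous growth, had -4.11 and -3.60 and a fitted value of -3.85 ± 0.25 (adjusted p = 2.8e-11). Its relative MEP1 had -0.64 and -1.53, with a fitted value of -1.08 ± 0.14 (adjusted p = 3.9e-06). MEP3, the third ammonium permease, had a value on replicate 1 only, -0.19. MEP2 and MEP1 lay below 0 on both arrays, MEP2 far lower than MEP1.

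GAP1, the general amino acid permease, had -3.55 and -3.74 and fell by 3.65 ± 0.38 (adjusted p = 6.6e-08). PUT4, the proline permease, had -2.25 and -2.86, with a fitted value of -2.56 ± 0.27 (adjusted p = 1.3e-07). DUR3, which carries urea into the cell, had -1.90 and -2.08, and its fall of 1.99 ± 0.31 (adjusted p = 2.9e-05) was smaller than those of the permeases above other than MEP1. OPT2, an oligopeptide transporter, was the exception, with 1.40 and 1.22 and a fitted value of 1.31 ± 0.16 (adjusted p = 8.5e-06). All 8 calls held with either glutamine array left out. UGA4, for GABA, and PTR2, for di- and tripeptides, had values on replicate 1 only, -0.01 and 0.45.

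Among the amino acid permeases under the SPS sensor, which reads amino acids outside the cell, 3 of 7 were tested and they went different ways. BAP2, for branched-chain amino acids, had 2.87 and 3.12 and a fitted value of 2.99 ± 0.48 (adjusted p = 7.7e-05). DIP5, for glutamate and aspartate, had -3.75 and -3.07 and fell by 3.41 ± 0.40 (adjusted p = 6.0e-07). TAT1, for aromatic and branched-chain amino acids, had 0.73 and 0.46 and did not pass (adjusted p = 0.080). The other 4 had values on replicate 1 only and were not tested: 1.09 for AGP1 and 1.05 for GNP1, both of which carry glutamine, 0.93 for BAP3 and 1.40 for TAT2. Outside that list, CAN1, the arginine permease, fell by 1.50 ± 0.14 (adjusted p = 9.7e-09), with -1.52 and -1.48 on the arrays.

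The enzymes of allantoin use were low as a group. DUR1,2, the urea amidolyase, was not analysed here. All 5 of the other listed genes were tested and fell, beside 12.9% of all tested genes, with a median of -2.79. DAL7, a malate synthase that removes the glyoxylate made from allantoin, had -4.58 and -4.50 and fell by 4.54 ± 0.27 (adjusted p = 6.3e-12). DAL2, the allantoicase, had -3.10 and -2.94 (fitted -3.02 ± 0.24), and DCG1, a neighbour of the DAL genes with no settled function, had -2.68 and -2.91 (fitted -2.79 ± 0.28). DAL1, the allantoinase, and DAL3, the ureidoglycolate lyase, fell by 1.89 ± 0.17 and 1.81 ± 0.16. The 5 calls held without either array. MLS1, the malate synthase of the glyoxylate cycle, also fell, with -2.69 and -3.52 on the arrays. Its sequence resembles that of DAL7, and cross-hybridisation between them was not tested.

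Enzymes that break down other amino acids fell less. Of the 9 tested, 5 fell, beside 12.9% of all tested genes. The median was -0.92, and all 9 fitted values were below 0. DSD1, which deaminates D-serine, had -2.01 and -2.20 and fell by 2.11 ± 0.22 (adjusted p = 7.8e-08). CHA1, the serine and threonine deaminase, had -1.81 and -2.05 (fitted -1.93 ± 0.32), and SDL1, a gene of the same kind, had -1.63 and -2.21 (fitted -1.92 ± 0.14). PUT2, of proline breakdown, and CAR1, the arginase, fell by 0.89 ± 0.15 and 0.92 ± 0.23. CAR1 lost its call when either array was left out (adjusted p = 0.058 without replicate 1 and 0.12 without replicate 2).

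The arrays disagreed on PUT1, the proline oxidase, which had -2.01 on replicate 1 and 0.01 on replicate 2. It did not pass (adjusted p = 0.12), and its value was -2.24 (adjusted p = 0.015) with replicate 2 left out. UGA1 and UGA2, which turn GABA into succinate, had fitted values of -0.45 ± 0.18 and -0.33 ± 0.13, and GDH2, the glutamate dehydrogenase that releases ammonium, one of -0.46 ± 0.22, none of which passed. GDH2 had -0.46 and -0.47 on the arrays.

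The enzymes that assimilate ammonium were lower on glutamine. GLN1, glutamine synthetase, which makes the compound that was supplied, had -3.62 and -2.91 and fell by 3.27 ± 0.20 (adjusted p = 7.9e-12), to 10.4% of the urea level. GLT1, the glutamate synthase that passes the amide nitrogen of glutamine to 2-oxoglutarate, had -1.37 and -2.00 (fitted -1.68 ± 0.17, adjusted p = 3.0e-08). GDH1, the NADPH-linked glutamate dehydrogenase, had -1.56 and -1.33 (fitted -1.45 ± 0.15, adjusted p = 6.5e-08). The 3 calls held without either array, and both arrays lay below 0 for each gene. The paralog GDH3 had no value on either array.

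Among enzymes that spend glutamine as nitrogen donor, GLT1 changed most. Of 18 listed, 14 were tested, with a median of -0.27, against -0.00 for all tested genes. The 5 that passed, 4 lower and 1 higher, stand beside 24.9% of all tested genes. At an unadjusted p under 0.05 in limma, 7 were lower and 1 higher. GFA1, which makes glucosamine phosphate for the cell wall, was higher, with 0.64 and 0.62 on the arrays and a fitted value of 0.63 ± 0.11 (adjusted p = 1.0e-04). GUA1 of GMP synthesis, TRP2 of tryptophan synthesis and QNS1 of NAD synthesis were lower by 0.51, 0.30 and 0.27, and these 3 calls were lost without either array (adjusted p = 0.079 to 0.32). With the replicate number as a block in place of the dye term TRP2 did not pass either (adjusted p = 0.0752). ASN1, an asparagine synthetase, had 0.01 and -0.93 and a fitted value of -0.46 ± 0.21 that did not pass (adjusted p = 0.11), while the other synthetase gene, ASN2, had 1.28 on replicate 1 and no value on replicate 2.

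Of the regulators of nitrogen source use, 6 of 10 were tested and 4 fell, beside 12.9% of all tested genes. DAL80, the GATA repressor, had -4.46 and -3.08 and fell by 3.77 ± 0.27 (adjusted p = 2.3e-10). GAT1, a GATA activator, had -1.54 and -1.64 and fell by 1.59 ± 0.15 (adjusted p = 7.7e-09). UGA3, the activator of the GABA genes, and NPR1, a kinase that keeps permeases at the cell surface, fell by 1.12 ± 0.14 and 0.64 ± 0.12. All 4 calls held without either array. URE2 had 0.05 and 0.04 and PUT3, the activator of proline use, -0.22 and -0.07, and neither passed. GLN3 and GZF3 had values on replicate 1 only, -0.23 and -0.90.

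**Figure D2:**
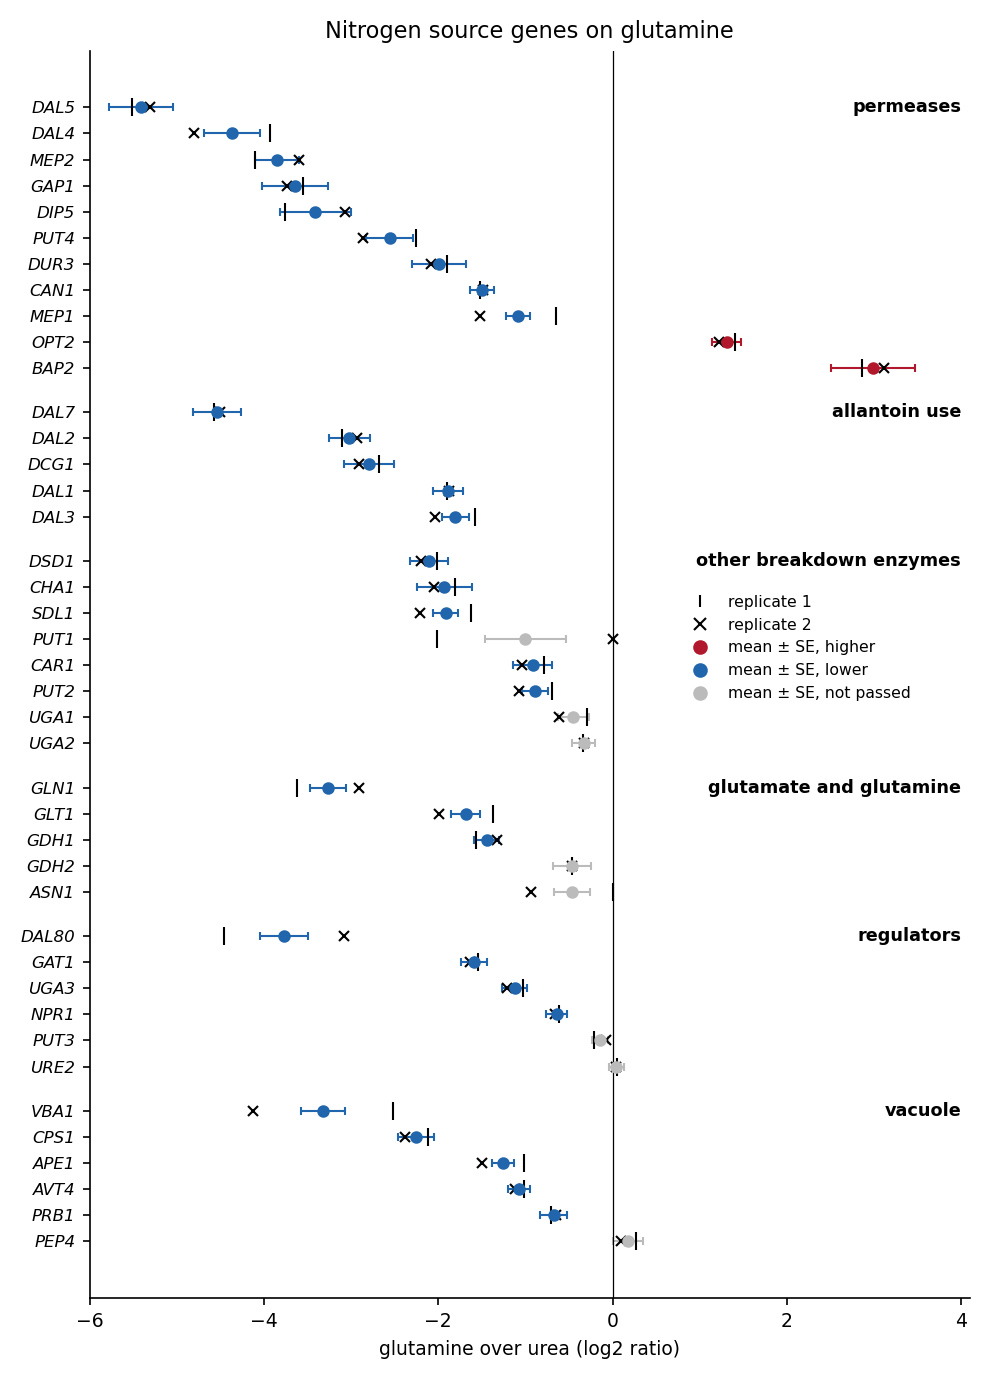
Log2 ratio of glutamine over urea for 41 genes of nitrogen source use, grouped by role. Bars and crosses are replicates 1 and 2, and circles the fitted mean ± SE, blue where the gene passed as lower, red as higher and grey where it did not pass. OPT2 and BAP2 are the permeases to the right of 0, and the arrays lie far apart for PUT1, DAL80 and VBA1.

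Genes of the vacuole, the store of basic amino acids, were lower in part. Of 8 tested amino acid transporters of its membrane, 6 fell, beside 12.9% of all tested genes, with a median of -0.65. Against ammonium, asparagine and glutamate 0 of the 8 passed, beside 0.0636%, 1.17% and 0.731% of all tested genes. The median differences were -0.12, 0.12 and -0.17. Against the mean of the other sources 3 of the 8 were lower, beside 2.38% of all tested genes. VBA1, for basic amino acids, had -2.52 and -4.12, which lie far apart, and fell by 3.32 ± 0.26 (adjusted p = 4.1e-10). AVT4 and AVT7, which carry amino acids out of the vacuole, fell by 1.07 ± 0.13 and 0.64 ± 0.09. The calls of VBA1, AVT4 and AVT7 held without either array. AVT1 and AVT6 lost theirs without replicate 2 (adjusted p = 0.086 and 0.052), and VBA2 without either (adjusted p = 0.11 and 0.27).

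Of 7 vacuolar proteases and inhibitors tested, 3 fell, beside 12.9% of all tested genes. CPS1, carboxypeptidase S, had -2.12 and -2.38 and fell by 2.25 ± 0.21 (adjusted p = 8.0e-09), and APE1, aminopeptidase I, fell by 1.26 ± 0.13 (adjusted p = 6.6e-08). PRB1, proteinase B, fell by 0.68 ± 0.16 and lost its call without replicate 1 (adjusted p = 0.15). PEP4, proteinase A, had 0.27 and 0.10 and PRC1, carboxypeptidase Y, 0.42 and 0.18, and neither passed. With the replicate block PRC1 passed as higher (adjusted p = 0.0227). Of 8 autophagy genes, ATG32, the receptor for removal of mitochondria, fell by 1.51 ± 0.13 (adjusted p = 3.8e-09) with -1.43 and -1.59 on the arrays. ATG1 fell by 0.58 ± 0.13 (adjusted p = 0.055 without replicate 1), and ATG19 was higher by 0.51 ± 0.18 (lost without either array, adjusted p = 0.28 and 0.23, and with the replicate block, adjusted p = 0.0556).

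Some of the lowest genes stand outside these lists. YHI9, a gene with no settled function, had -3.08 and -3.82 and fell by 3.45 ± 0.20 (adjusted p = 4.8e-12). NIT1, a gene of the nitrilase family, had -2.40 and -3.06 and fell by 2.73 ± 0.22 (adjusted p = 5.9e-10). Both calls held without either array.

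Genes higher on glutamine reached smaller sizes than the lowest genes. YOR387C and VEL1, which are similar in sequence and may share signal on an array, had 3.36 and 4.20, and 3.18 and 4.14, with fitted values of 3.78 ± 0.71 (adjusted p = 3.2e-04) and 3.66 ± 0.49 (adjusted p = 3.9e-06). ADH4, a zinc-regulated alcohol dehydrogenase, had 2.15 and 2.82 (fitted 2.48 ± 0.36), ZPS1, a surface protein regulated by zinc and pH, 1.61 and 2.22 (fitted 1.92 ± 0.28), and FRE4, a ferric reductase, 2.59 and 2.06 (fitted 2.33 ± 0.27). URH1, which splits uridine, had 1.85 and 1.80 (fitted 1.83 ± 0.19). These calls held without either array. CTT1, the cytosolic catalase, was higher by 1.77 ± 0.44 (adjusted p = 0.0052), and lost its call without replicate 1 or 2 (adjusted p = 0.12 and 0.076). Without the dye term ZPS1 and CTT1 did not pass (adjusted p = 0.0572 and 0.055).

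SED1, YOR387C and ADH4 were also high on other sources relative to the shared urea RNA. SED1, a major cell wall glycoprotein, had 1.74 and 2.15 on glutamine (fitted 1.95 ± 0.29), and its fitted values on the 19 other sources were between 1.03 and 3.60 (median 2.21). For YOR387C the other sources spanned 1.87 to 5.51 (median 3.97), and for ADH4, on 18 others, 1.03 to 2.62 (median 1.99). Of 10 tested cell wall genes 5 were higher on glutamine than on urea, beside 12.1% of all tested genes, with a list median of 0.31. They were SED1, TIP1 (1.66 ± 0.25), PST1 (0.67 ± 0.13), CIS3 (0.45 ± 0.14) and CRH1 (0.44 ± 0.13). CRH1 lost its call without either array and CIS3 without replicate 2 (adjusted p = 0.094, 0.24 and 0.40). Without the dye term 3 of the 10 passed, with PST1 and CIS3 lost (adjusted p = 0.0665 and 0.134). Against ammonium 0 of 10 cell wall genes passed, against asparagine 0 of 9 and against glutamate 0 of 10. The shares of all tested genes were 0.0636%, 1.17% and 0.731%. Against the mean of the other sources 0 of 10 passed, beside 2.96% of all tested genes, with a median difference of 0.03.

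Genes of protein folding in the endoplasmic reticulum were higher on glutamine than on urea throughout. All 11 tested of 14 listed passed as higher, with a median of 1.18, beside 12.1% of all tested genes. PDI1, the protein disulfide isomerase, had 1.29 and 1.34 and a fitted value of 1.31 ± 0.18 (adjusted p = 7.6e-06). KAR2, the main chaperone of the compartment, had 0.94 and 1.41 (fitted 1.18 ± 0.20, adjusted p = 9.3e-05), and its exchange factor SIL1 had 1.39 and 1.34 (fitted 1.36 ± 0.18, adjusted p = 5.7e-06). Both arrays lay above 0 for all 3 genes.

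HAC1, which encodes the transcription factor of the unfolded protein response, had 1.76 and 0.82 (fitted 1.29 ± 0.17, adjusted p = 3.9e-06). The activity of that factor depends on splicing of its RNA, which the array does not show. DER1, needed to remove misfolded proteins, had 1.14 and 1.51 (fitted 1.33 ± 0.13), and EUG1, a second disulfide isomerase, 1.04 and 1.32 (fitted 1.18 ± 0.10). ERO1, LHS1, FPR2 and MPD1 had fitted values between 0.86 and 1.13. MPD2 was lowest at 0.31 ± 0.11 and was the member that lost its call without either array (adjusted p = 0.22 and 0.29), which left 10 of 11. It also did not pass with the replicate block (adjusted p = 0.104). SCJ1 and CNE1 had values on replicate 1 only, 0.44 and 0.27. Of the 11 genes of this list 0 passed against ammonium and 0 against glutamate, beside 0.0636% and 0.731% of all tested genes. The median differences were 0.21 and 0.08. Against asparagine 2 of the 11 were higher, beside 0.653% of all tested genes. PDI1 also had 1.31 over urea on aspartate, 1.17 on proline and 1.12 on glutamate, and its lowest value was -0.07 on tyrosine.

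Read against the shared urea RNA, the 2 kinds of ribosome stood on opposite sides of 0. Of 130 tested genes for cytosolic ribosomal proteins 40 fell, which is 40 of 130 beside 12.9% of all tested genes. Their median was -0.31, and 123 of the 130 had fitted values below 0. With limma, 65 were lower and 0 higher at an unadjusted p under 0.05. RPS9A had -0.98 and -1.01 and fell by 1.00 ± 0.17 (adjusted p = 1.2e-04), a call that held without either array. RPS22B had -0.70 and -1.49 (fitted -1.09 ± 0.22, adjusted p = 0.14 without replicate 2). RPP1B, whose arrays were far apart at -2.09 and -0.16, had -1.13 ± 0.41 (adjusted p = 0.045) and was lost without either array (adjusted p = 0.58 and 0.077). The count rested on both arrays, with 7 lower without replicate 1 and 16 without replicate 2. It was 20 without the dye term and 75 with array weights. At the other end of the list RPL1A, RPL9A and RPS29A had fitted values of 0.14, 0.14 and 0.22 that did not pass.

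Of 40 tested genes for mitochondrial ribosomal proteins 18 were higher and 1 lower, beside 12.1% higher and 12.9% lower of all tested genes. Their median was 0.33, with 36 fitted values above 0. MRPL50 had 0.67 and 0.74 (fitted 0.70 ± 0.14, adjusted p = 5.5e-04), MRPL7 0.85 and 0.49 (0.67 ± 0.14) and MNP1 0.56 and 0.69 (0.63 ± 0.12). MNP1 held without either array, while MRPL50 and MRPL7 did not pass without replicate 1 (adjusted p = 0.064 and 0.10). The 1 lower gene, MRPL33, had -2.72 on replicate 1 and -0.09 on replicate 2 (fitted -1.40 ± 0.33, adjusted p = 0.0033), and did not pass without replicate 1 (-0.55, adjusted p = 0.46). Without replicate 1 the list held 6 higher genes, and without replicate 2 it held 6 higher and 1 lower. Genes of ribosome biogenesis lay slightly below 0, with a median of -0.17. The 6 of 48 that passed as lower are near the 12.9% of all tested genes. Among them DBP3, an RNA helicase, had -0.41 and -0.76 (fitted -0.59 ± 0.16), and NOP12, a nucleolar protein, -0.36 and -0.60 (-0.48 ± 0.13). With the replicate block 3 of the 48 were lower and DBP3 did not pass (adjusted p = 0.0511). With both arrays, 14 were lower and 0 higher at an unadjusted p under 0.05 in limma. None of the 48 passed in limma's fits without replicate 1 or without replicate 2.

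**Figure D3:**
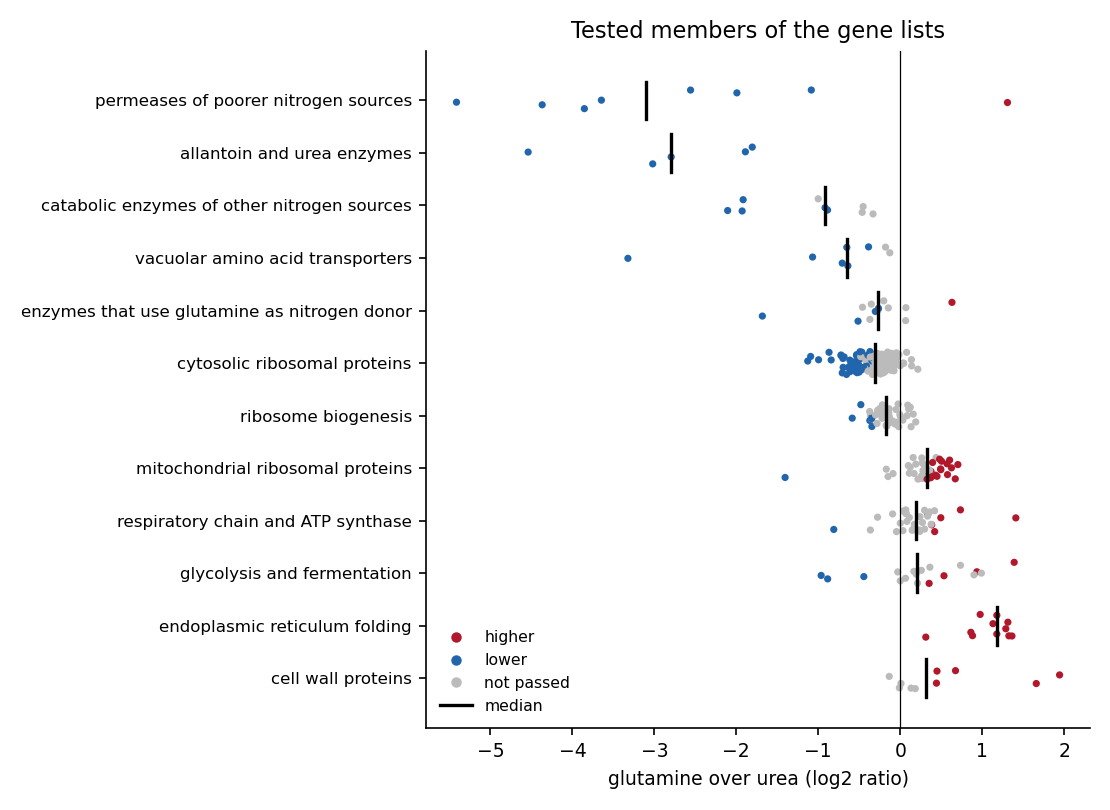
Fitted log2 ratio of glutamine over urea for every tested member of 12 gene lists, 1 point per gene with random vertical offset. Red, blue and grey mark genes that passed as higher, passed as lower or did not pass, and black bars the medians. The endoplasmic reticulum list lies wholly above 0 with a median of 1.18, and the cytosolic ribosomal proteins centre on -0.31.

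The counts of central carbon genes stand beside 12.1% higher and 12.9% lower of all tested genes, and nothing particular to these lists is read from them. Of 19 tested genes of glycolysis and fermentation 4 were higher and 3 lower, with a median of 0.21. PGK1, phosphoglycerate kinase, had 1.70 and 1.09 (fitted 1.39 ± 0.23, adjusted p = 5.0e-05), and TPI1, triose phosphate isomerase, had 0.51 and 1.36 (0.94 ± 0.14, adjusted p = 3.1e-05). ADH1, the main fermentative alcohol dehydrogenase, had -0.28 and -1.49 and fell by 0.89 ± 0.29, a call lost without either array (adjusted p = 0.32 and 0.12). With the replicate block its value was -0.22 (adjusted p = 0.724). ADH3, its mitochondrial relative, fell by 0.96 ± 0.23 (adjusted p = 0.25 without replicate 2).

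Of 34 tested respiratory chain and ATP synthase genes 6 were higher and 1 lower, with a median of 0.19, and 1 was higher without replicate 1 and 1 without replicate 2. NDE1, which oxidises cytosolic NADH at the mitochondrial membrane, had 1.17 and 1.65 and a fitted value of 1.41 ± 0.24 (adjusted p = 9.3e-05). COX5B was the lower gene, with -0.61 and -1.01 (-0.81 ± 0.17, adjusted p = 0.14 without replicate 2). PYC1, pyruvate carboxylase, fell by 1.18 ± 0.18 (adjusted p = 2.2e-05), with -1.42 and -0.93. Of the hexose transporters and sensors tested, HXT3 fell by 0.62 ± 0.17 and the sensor gene RGT2 by 0.41 ± 0.09. The call of HXT3 was lost without either array (adjusted p = 0.096 and 0.19) and that of RGT2 without replicate 1 (adjusted p = 0.054).

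Most genes that make amino acids did not pass, as was true of all tested genes, of which 24.9% passed. The counts stand beside 12.1% higher and 12.9% lower of all tested genes, and nothing particular to these lists is read from them. For lysine 2 of 7 tested genes were lower, for aromatic amino acids 2 of 11, for arginine 1 of 6 lower and 1 higher, and for sulfate assimilation and methionine 2 of 18. ARO8, an aromatic aminotransferase, had -1.34 and -1.78 (fitted -1.56 ± 0.15, adjusted p = 1.3e-08), and LYS21, a homocitrate synthase, had -1.17 and -0.67 (-0.92 ± 0.16, adjusted p = 9.3e-05). ARG4, argininosuccinate lyase, had -1.45 and -0.69 (-1.07 ± 0.18) and lost its call without replicate 1 (adjusted p = 0.057). SUL1, a sulfate permease, fell by 1.09 ± 0.13, with -0.82 and -1.35.

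GCV2, a subunit of glycine decarboxylase, had -0.99 and -1.19 and fell by 1.09 ± 0.18 (adjusted p = 7.7e-05). In purine metabolism, AAH1, adenine deaminase, had -1.46 and -1.76 and fell by 1.61 ± 0.16 (adjusted p = 1.1e-07), while 3 of the 15 tested genes were higher and 4 lower. FUR4, the uracil permease, had -0.94 and -1.11 and fell by 1.03 ± 0.22 (adjusted p = 0.054 without replicate 2). No gene of histidine synthesis passed among 5 tested with limma, and at an unadjusted p under 0.05 the count was 0 as well.

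The next comparison asked where glutamine stood among the other sources, all read against the same urea RNA. Glutamine minus the mean of the 19 other sources was tested for 2978 genes, of which 88, or 2.96%, passed, 71 lower (2.38%) and 17 higher (0.571%). Genes of nitrogen source use were among the lower ones: 6 of 8 permeases, all 5 allantoin genes, 7 of 9 other breakdown enzymes and all 4 of the ammonium, glutamate and glutamine enzymes. The differences were -2.91 ± 0.26 for MEP2 (adjusted p = 4.4e-08), -2.88 ± 0.39 for GAP1 (adjusted p = 1.8e-05), -2.86 ± 0.38 for DAL5 (adjusted p = 1.5e-05) and -2.77 ± 0.41 for DIP5 (adjusted p = 8.0e-05). All 4 calls held without either array. The other sources include substrates of the breakdown enzymes, such as arginine for CAR1. Of these enzymes 0 of 9 passed against ammonium and 0 of 9 against asparagine, beside 0.0636% and 1.17% of all tested genes. The median differences were 0.11 and 0.33. At an unadjusted p under 0.05 in limma, 1 was higher and 0 lower against ammonium, and 4 were higher and 0 lower against asparagine. Against glutamate 1 of 8 was lower, beside 0.557% of all tested genes, with a median of -0.12.

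GLN1 had a fitted value of -3.27 on glutamine, while the 19 other sources lay between -1.70 on asparagine and 0.12 on tyrosine, with a median of -0.35. No other source overlapped the 2 glutamine arrays of GLN1 in its fitted value. DIP5 had -3.41 on glutamine, with asparagine next at -2.06 and tyrosine highest at 0.89. DAL7 had -4.54, close to asparagine at -4.37. For GAP1, MEP2, DAL5, DAL4 and DAL80, asparagine was lower than glutamine and glutamine was second of the 20 sources or, for DAL80, of 19. GAP1 for example had -3.65 on glutamine, -4.19 on asparagine, -3.26 on serine and 0.44 on tryptophan.

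DUR3 stood apart from GAP1, MEP2, DAL5, DAL4 and DIP5 in this order. Its value of -1.99 on glutamine was among the least negative, with 17 of the 19 other sources lower, down to -3.92 on tryptophan. For DUR3 glutamine minus the other sources was 0.55 ± 0.32 (adjusted p = 0.51). Of the 8 tested permeases of poorer sources, 2 lay above the mean of the other sources, DUR3 among them, and 6 below. At an unadjusted p under 0.05 in limma, 1 of the 8 was higher and 6 were lower. GDH2 differed from urea by an amount that did not pass, and was lower than the mean of the other sources by 1.33 ± 0.23 (adjusted p = 4.1e-04), since its other sources reached 2.73 on isoleucine. Without replicate 2 that call was lost (adjusted p = 0.092). ASN1 had the lowest fitted value of the 20 sources, -0.46, against -0.00 to 1.91 on the others (difference -1.19 ± 0.21, adjusted p = 6.8e-04, and 0.11 without replicate 2). CAR1, at -0.92 on glutamine, had -0.76 to 5.47 on the others (difference -1.92 ± 0.23, adjusted p = 5.8e-06).

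IRC7, an enzyme that splits cysteine conjugates, had -1.16 and -2.41 on the glutamine arrays and a fitted value of -1.79 ± 0.29, while the 18 other sources with values lay between -1.29 and 1.96 with a median of 0.76. Its difference of -2.25 ± 0.30 (adjusted p = 2.0e-05) held without either array. Among the higher genes were 3 of the 10 endoplasmic reticulum genes tested: DER1 by 0.87 ± 0.14 (adjusted p = 1.9e-04), PDI1 by 0.73 ± 0.19 (adjusted p = 0.029) and EUG1 by 0.69 ± 0.11 (adjusted p = 1.6e-04). For these 3 genes glutamine gave the highest fitted value of its sources, with the next at 0.90, 1.31 and 1.16, and PDI1 on glutamine and on aspartate did not differ within the decimals printed. DER1 and EUG1 did not pass without replicate 2 (adjusted p = 0.062 and 0.071) and PDI1 without either (adjusted p = 0.40 and 0.35). FRE4 was higher by 1.09 ± 0.28 (adjusted p = 0.038) and TPI1 by 0.65 ± 0.15 (adjusted p = 0.013). FRE4 lost its call without either array (adjusted p = 0.64 and 0.16) and TPI1 without replicate 2 (adjusted p = 0.77).

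**Figure D4:**
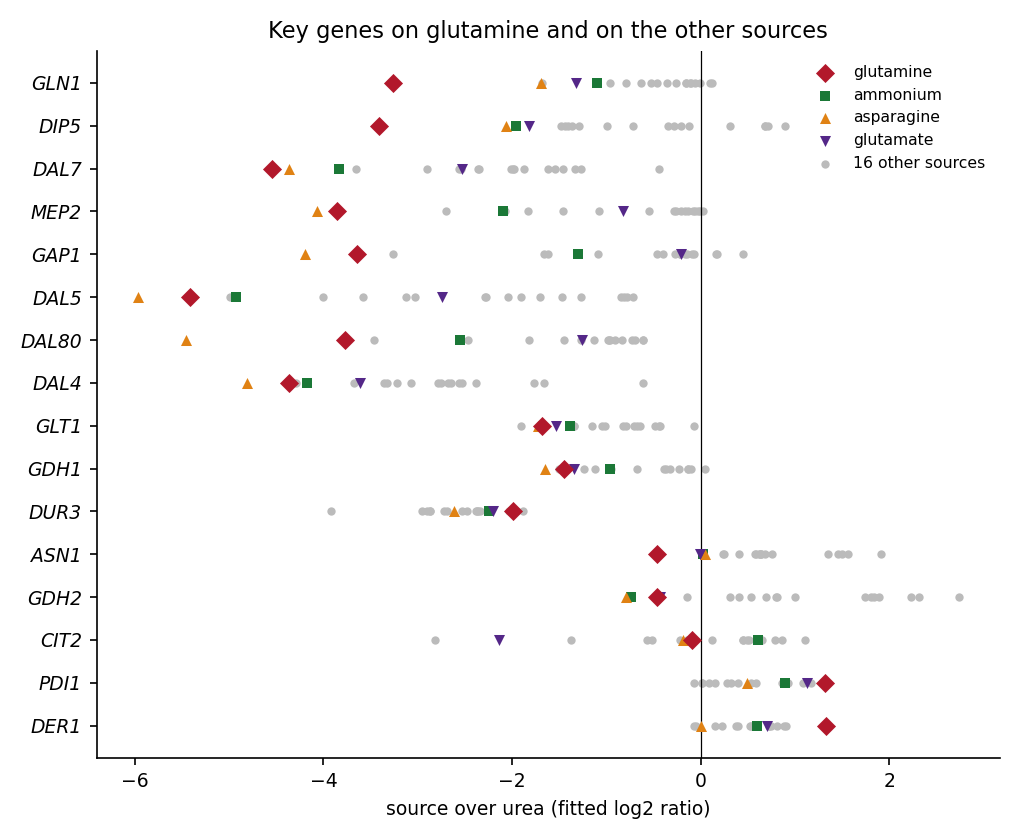
Fitted log2 ratio of each source over urea for 16 genes, with glutamine as red diamonds, ammonium, asparagine and glutamate as green, orange and purple symbols and the 16 other sources in grey. Glutamine is alone at the low end for GLN1 and DIP5, lies beside asparagine for DAL7 and MEP2, and lies between asparagine and serine for GAP1. It is at the high end for PDI1 and DER1.

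Glutamine and ammonium, both preferred sources, differed in few tested genes. Of 3146 genes, 0.0636%, or 2 genes, passed with limma, both lower on glutamine. No gene passed as higher, and 64 genes were higher and 69 lower at an unadjusted p under 0.05. GLN1 had -3.62 and -2.91 on the glutamine arrays, against -1.12 and -1.07 on the ammonium arrays, and the difference was -2.17 ± 0.29 (adjusted p = 1.7e-04). It passed in all alternatives run for this contrast. The other gene, DAL3, had -1.57 and -2.04 on glutamine and -0.62 and -0.63 on ammonium (-1.18 ± 0.22, adjusted p = 0.027), and did not pass without glutamine replicate 2 (adjusted p = 0.66) or without either ammonium array (adjusted p = 0.081 and 0.14).

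GAP1, MEP2 and DAL5 had wider spreads than GLN1 and DAL3 and did not pass in that contrast. The difference of GAP1 was larger in size than those of GLN1 and DAL3, and that of DAL5 was smaller. GAP1 had -3.55 and -3.74 on glutamine and -1.34 and -1.26 on ammonium, and the difference of -2.35 ± 0.54 missed the threshold (adjusted p = 0.14), although the arrays of the 2 sources did not overlap. MEP2 had -4.11 and -3.60 on glutamine and -2.39 and -1.81 on ammonium (-1.75 ± 0.36, adjusted p = 0.052). DAL5 had -5.52 and -5.31 on glutamine and -5.57 and -4.29 on ammonium, which overlap (-0.48 ± 0.52). A p above the threshold does not show that such values are alike.

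Glutamine and asparagine are the 2 amides among the sources. Of 3064 genes 36, or 1.17%, passed, 20 higher (0.653%) and 16 lower (0.522%) on glutamine. The count was 7 with the replicate number as a block in place of the dye term. It was 5 without either glutamine array and 9 without asparagine replicate 2. DIC1, the mitochondrial dicarboxylate carrier, had -0.42 and -0.60 on glutamine and 1.38 and 1.24 on asparagine, a difference of -1.82 ± 0.23 (adjusted p = 1.4e-04). DER1 had 1.14 and 1.51 on glutamine and -0.33 and 0.34 on asparagine, a difference of 1.32 ± 0.19 (adjusted p = 4.4e-04). These 2 genes passed in all the alternatives run for them.

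GLN1 was lower on glutamine than on asparagine, which had -1.58 and -1.81, by 1.57 ± 0.29 (adjusted p = 0.010, and 0.21 without glutamine replicate 1 and 0.051 without asparagine replicate 1). DAL80 went the other way, with -4.46 and -3.08 on glutamine and -5.37 and -5.53 on asparagine (1.68 ± 0.39, adjusted p = 0.038, and 0.052 with the replicate block). It did not pass without glutamine replicate 1 or 2 (adjusted p = 0.099 and 0.22) or asparagine replicate 2 (adjusted p = 0.49). INO1, inositol phosphate synthase, had 0.64 and 0.19 on glutamine and -0.96 and -2.22 on asparagine (2.01 ± 0.40, adjusted p = 0.018), and lost its call without either glutamine array (adjusted p = 0.16 and 0.13) or asparagine replicate 2 (adjusted p = 0.32). For the permeases of poorer sources none of 8 differences passed with limma, 1 was higher at an unadjusted p under 0.05, and the fitted differences of GAP1 and MEP2 were 0.54 ± 0.54 and 0.21 ± 0.36.

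Cytosolic ribosomal proteins made up 9 of the 16 genes lower on glutamine than on asparagine, out of 130 tested, beside 0.522% of all tested genes, and their median difference was -0.48, against 0.04 for all tested genes. At an unadjusted p under 0.05 in limma, 75 were lower and 0 higher. The count of 9 did not hold in several fits. It was 1 with the replicate block, 1 without the dye term, 0 without glutamine replicate 1, 2 without glutamine replicate 2, 2 without asparagine replicate 1 and 0 without asparagine replicate 2. It was 25 with the 4 arrays alone, 67 with array weights and 16 without the tryptophan and tyrosine arrays. RPL8A had -0.54 and -0.86 on glutamine and 0.82 and 0.27 on asparagine (-1.24 ± 0.26, adjusted p = 0.027). RPL7B had -0.95 and -0.42 on glutamine and 0.44 and 0.53 on asparagine (-1.17 ± 0.21, adjusted p = 0.014). The arrays of the sources did not overlap for either gene. With the replicate block RPL8A did not pass (adjusted p = 0.077), nor did it without glutamine replicate 1 or 2 (adjusted p = 0.30 and 0.058) or asparagine replicate 2 (adjusted p = 0.32). RPL7B did not pass without glutamine replicate 1 (adjusted p = 0.23) or asparagine replicate 2 (adjusted p = 0.098). The 2 paralogs of a ribosomal protein are close in sequence, and their signals may not be separate. Against ammonium 0 of 130 cytosolic genes passed and against glutamate 0 of 124, beside 0.0636% and 0.731% of all tested genes. Their median differences were -0.09 and 0.07. Against the mean of the other sources 1 of 130 was lower, beside 2.38% of all tested genes, with a median of -0.17. Of 38 mitochondrial ribosomal genes 0 passed against ammonium, glutamate or the mean of the other sources, beside 0.0636%, 0.731% and 2.96% of all tested genes. Against asparagine 1 of 38 was higher, beside 0.653% of all tested genes, with a median difference of 0.20. At an unadjusted p under 0.05 in limma, 6 mitochondrial ribosomal genes were higher and 0 lower against asparagine.

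Glutamate carries the same carbon skeleton as glutamine without the amide nitrogen. Of 2871 genes 21, or 0.731%, passed, 16 lower (0.557%) and 5 higher (0.174%) on glutamine. GAP1 had -3.55 and -3.74 on glutamine and -0.34 and -0.08 on glutamate, a difference of -3.43 ± 0.54 (adjusted p = 4.0e-04). MEP2 had -4.11 and -3.60 on glutamine and -1.27 and -0.38 on glutamate, a difference of -3.03 ± 0.36 (adjusted p = 1.2e-05). DAL80 had -1.62 and -0.90 on glutamate, above both of its glutamine values, and differed by -2.51 ± 0.39 (adjusted p = 4.0e-04). The arrays of the 2 sources were well apart for all 3 genes.

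YHI9 and GLN1 were also lower on glutamine, by 1.99 ± 0.28 (adjusted p = 1.6e-04) and 1.94 ± 0.29 (adjusted p = 2.2e-04). The calls of GAP1, MEP2, DAL80, YHI9 and GLN1 held with any 1 array of glutamine or glutamate left out. DAL5 had -5.52 and -5.31 on glutamine and -3.51 and -1.96 on glutamate (-2.68 ± 0.52, adjusted p = 0.0050), and did not pass without glutamine replicate 2 (adjusted p = 0.24) or glutamate replicate 2 (adjusted p = 0.19). DAL7 had -4.58 and -4.50 on glutamine and -2.74 and -2.31 on glutamate (-2.01 ± 0.39, adjusted p = 0.0046), and did not pass without glutamine replicate 1 (adjusted p = 0.13) or glutamate replicate 2 (adjusted p = 0.31). In total 3 of 8 permeases of poorer sources passed as lower on glutamine.

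The 5 genes higher on glutamine than on glutamate included 2 of the retrograde response, the pathway by which glutamate lowers genes for 2-oxoglutarate supply. CIT2, the peroxisomal citrate synthase, had -0.05 and -0.12 on glutamine and -2.52 and -1.77 on glutamate, a difference of 2.05 ± 0.29 (adjusted p = 1.6e-04). DLD3, a lactate dehydrogenase and common marker of that pathway, had 0.46 and 0.40 on glutamine and -1.24 and -1.04 on glutamate, a difference of 1.57 ± 0.17 (adjusted p = 5.1e-06). Both calls held with any 1 array left out. Both genes had glutamine values near or above those of urea: CIT2 was at -0.09 ± 0.21 against urea (adjusted p = 0.80) and DLD3 at 0.43 ± 0.12 (adjusted p = 0.0095).

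The other 4 retrograde genes tested against glutamate did not pass. IDH2, an isocitrate dehydrogenase subunit, had -0.04 and 0.05 on glutamine and -1.30 and -0.24 on glutamate (0.77 ± 0.21, adjusted p = 0.15), and the list's median difference was 0.70, against 0.00 for all genes. SAM3, an S-adenosylmethionine permease, had 0.84 and 0.45 on glutamine and -0.75 and -0.93 on glutamate (1.49 ± 0.28, adjusted p = 0.0046, and 0.10 without glutamine replicate 1). Without glutamate replicate 1 or 2 it did not pass either (adjusted p = 0.061 and 0.074). CPA1, of carbamoyl phosphate synthesis for arginine, had 0.26 and -0.12 on glutamine and -0.68 and -0.91 on glutamate (0.87 ± 0.19, adjusted p = 0.024). It lost its call without any 1 of the 4 arrays (adjusted p = 0.086 to 0.38).

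**Figure D5:**
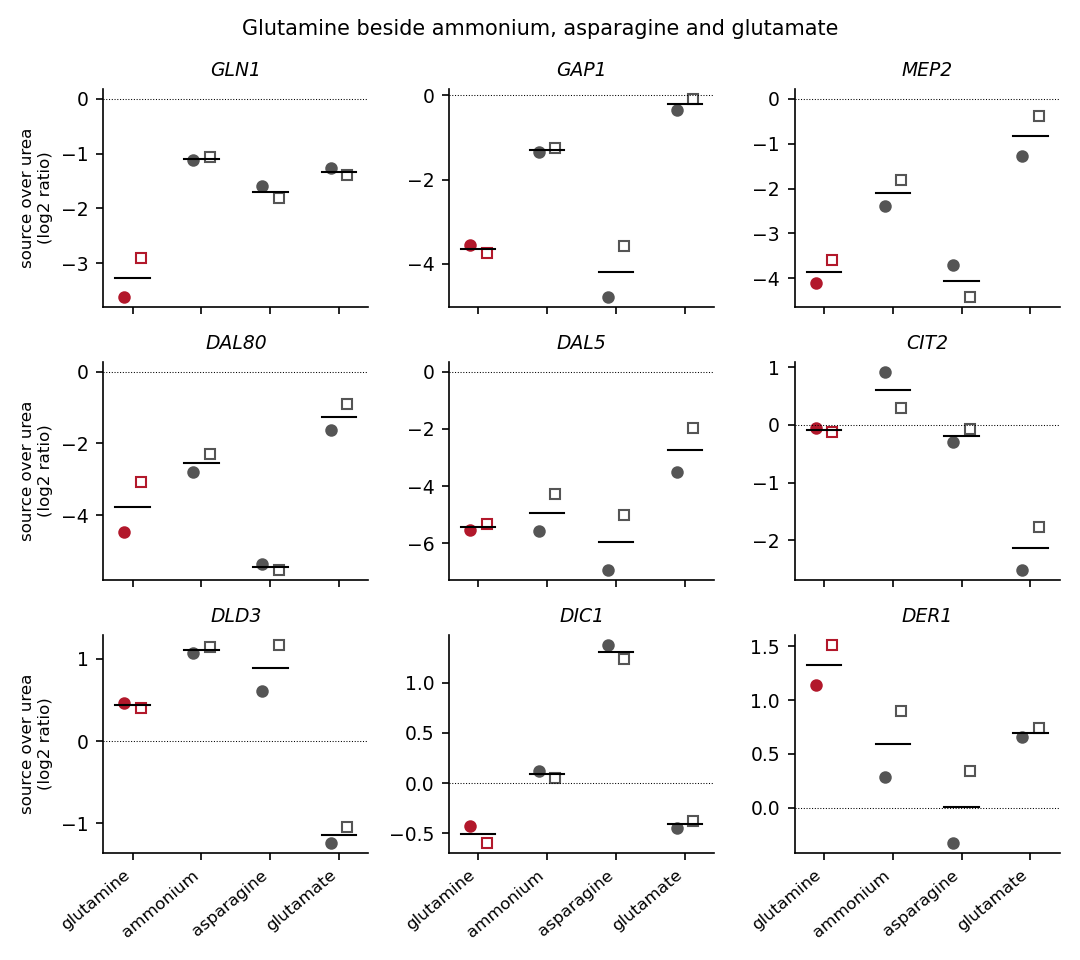
Log2 ratio of each source over urea on both arrays for 9 genes, glutamine in red at the left of each panel, then ammonium, asparagine and glutamate. Filled circles are replicate 1, open squares replicate 2 and lines their mean. GLN1 is lowest on glutamine, GAP1 and MEP2 are low on glutamine and asparagine, and CIT2 and DLD3 are low on glutamate alone among the 4.

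Of the genes tested in all 4 contrasts, GLN1 was the 1 gene that passed in each, always lower on glutamine. DAL3 and DAL80 passed in 3, DAL3 lower on glutamine than ammonium, glutamate and the other sources, and DAL80 lower than glutamate and the other sources and higher than asparagine. In all, 119 genes passed in at least 1 contrast.

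Many genes of interest lie outside these counts because an array gave them no value. Replicate 1 alone gave 1593 genes, replicate 2 alone 134, and 403 genes had a value on other arrays but on neither of these. Among the 77 members with both values that were not tested, the following were picked after their values were seen. DOG1, a sugar phosphate phosphatase, had 3.32 and 2.09 and GUD1, guanine deaminase, -1.34 and -2.20.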

How the data were processed

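The data were 2 two-colour arrays of glutamine against urea, read within a set of 40 arrays of 20 nitrogen sources, each with 2 arrays against urea. The authors deposited centred log ratios, Cy5 over Cy3, in 2 tables with 1 glutamine array each, read here as log2 since labels and headers leave the base unstated. Scanner, background correction and normalization: not given in the sources used here. Ratios were used as deposited where glutamine was in Cy5 and with the sign turned where urea was, and spots were averaged per gene. Gene names came from the array annotation, and 5406 of 5411 and 5552 of 5557 genes matched RefSeq names.

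limma 3.58.1 in R 4.3.3 (lmFit and eBayes) was fitted to all 40 arrays, with a signed term for each source and a dye term, on 4332 genes with values on at least 30 arrays. Tests were two-sided, and the Benjamini-Hochberg adjustment ran over all genes tested in a comparison, with a threshold of 0.05. The fit was run on simulated data with a dye shift per gene and noise drawn independently for each array. Noise shared between arrays beyond that shift was therefore not covered. The number of arrays limits the precision, and for glutamine the table, the dye orientation and the replicate number coincide. Same-numbered arrays deviated together in all 153 pairs of the 18 sources with both dye orientations (lowest correlation 0.127, median 0.438), so the replicate number pairs the arrays, through table and dye.

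Genes named are the 15 lowest and 15 highest that passed with both arrays in that direction, up to 8 highest and 8 lowest of each contrast, members of lists of at most 20 genes, and the 3 highest and 3 lowest of longer lists. The members and lists were chosen with earlier results of these data known. Alternatives covered the dye term, the replicate block, centring, scaling, gene filters, spots, array weights, the arrays fitted and each array left out. Sequences were not used here.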

Additional observations from a re-analysis of the deposited data

How the results depend on the processing

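Of 1906 repeats of 152 gene results, 1763 kept direction and side of the threshold, 120 lost the call, 20 gained one and 3 turned sign. The 3 were PUT1 against urea (0.24 and -2.24 without replicates 1 and 2), URE2 against urea (0.091 and -0.0024) and MEP2 against asparagine (0.66 and -0.23 without asparagine replicates 1 and 2), and none of them had passed. Against urea 795 genes passed, and 517 without the dye term, 342 among genes on all 40 arrays (fewer genes tested), 1289 with array weights and 485 with the glutamine arrays alone. Leaving out 1 array gave 273 to 348. Against ammonium 2 passed, 9 with the 4 arrays alone, and 1 to 12 with 1 array left out. Against asparagine 36 passed, 4 without the dye term, 7 with the replicate block, 19 with arrays scaled to equal spread, 22 among genes on all 40 arrays, 443 with array weights, 103 with the 4 arrays alone and 5 to 31 with 1 array left out. Against glutamate 21 passed, 13 without the dye term, 34 with array weights and 10 to 16 with 1 array left out. Against the mean of other sources 88 passed, 51 without the dye term, 50 among genes on all 40 arrays, 256 with array weights and 20 to 58 with 1 array left out. The fit without the tryptophan and tyrosine arrays, added after seeing the data, gave 79 against asparagine and stayed within 1.5 times in the other comparisons. The replicate block gave 771 against urea, of which 649 were among the 795 that passed with the dye term. The count against asparagine was the 1 that it moved beyond 1.5 times. The cause was not tested in any case not marked above. The description of promoter motifs was not run.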

Other observations

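Some genes were far apart on the 2 arrays. CIS1 had -0.17 on replicate 1 and -2.99 on replicate 2. Of the 795 genes that passed against urea, 5 had opposite signs on the arrays: HST4, SPT5, SWS2, VTC2 and ZEO1. These genes were picked after their values were seen. Among 1256 genes with values on all 20 sources, glutamine gave the lowest fitted value for 48 and the highest for 49.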
